A study of Mus musculus with 33 samples.

Results

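Leukocytes were followed in mouse liver and liver tumours through 37 marker genes of 5 lineages. The list held 4 pan-leukocyte genes, 9 T and NK cell genes, 4 B and plasma cell genes, 4 neutrophil genes and 16 monocyte-macrophage genes. It was compiled by lineage from known cell markers, and each gene was read from the probe set that carried that single symbol and had the highest mean over all columns. By that rule 36 of the 37 genes were measured, among 18193 genes in all. Lck, the kinase that starts T cell receptor signalling, had no probe set with that single symbol and was not analysed here. Of the 36 genes, 28 were brighter than the 40% dimmest genes of the array. The 8 dimmer ones were Cd8a, Cd2, Gzmb, Klrd1, Cd79b, Ms4a1, Itgam and Trem2. The tests used all 36, with no filter on brightness. The list itself was chosen with earlier results of these data known.

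The livers came from mice of 12 months on a mixed background of FVB/NT, 129S1/Svlmj and C57BL/6NT. Per the labels, 7 livers were wild type (wt) and 5 were from E2f3a knockouts (3aKO), all normal liver, while 5 E2f1 knock-in (1KI) and 4 E2f3b knock-in (3bKI) samples were hepatocellular carcinoma that had arisen spontaneously. E2f1, E2f3a and E2f3b are E2F transcription factors, known for their control of cell cycle genes. Neither tumour group had normal liver of its own genotype among the samples, so genotype and tumour cannot be told apart. The RNA was extracted whole with Trizol, and 5 ug per sample went into biotinylated cRNA for Affymetrix arrays. The wt and 3aKO arrays were normalized once with the 1KI arrays (normalization 1) and once with the 3bKI arrays (normalization 2). The tumour groups were therefore compared with the normal livers of their own run and not with each other. All values are log2 expression, differences are differences of log2 values, and ± after a difference is its standard error. The labels number the livers and say no more of how the mice were chosen, so the p-values measure the spread between these samples.

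The liver holds its own macrophages, the Kupffer cells, in the sinusoids, together with many NK cells and T cells and a traffic of monocytes, neutrophils and B cells from blood. Leukocyte markers name these cells by their tools: CD45 on nearly all of them, the receptors of T and B cells, granzymes of killer cells, calprotectin of neutrophils, and complement C1q, lysozyme and lysosomal proteins of macrophages. Liver tumours recruit monocytes that mature into tumour macrophages, a state often marked by the lipid receptor TREM2 and the lysosomal glycoprotein GPNMB. In whole-tissue RNA, fewer cells of a type and less RNA per cell cannot be told apart.

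The liver label held in all 21 arrays: albumin was at 14.80 or above and the mean of 9 hepatocyte genes between 13.58 and 14.01. The sexes were unequal between groups, read from Xist and 3 Y-linked genes: 3 females and 4 males among wt, 3 and 2 among 3aKO, 2 and 3 among 1KI, and 3 females with no clear male among 3bKI. Tumour 2 of 3bKI was low for both kinds of gene. Tumour 3 of 3bKI stood apart: it was the highest of the 16 arrays of its run for 28 of the 36 leukocyte genes (77.8%), against 8.78% of all genes. The 3' minus 5' signal of Actb, a measure of RNA integrity, was 0.70 to 0.87 in 3bKI, 0.65 to 1.37 in wt and 1.06 to 1.35 in 3aKO. In 1KI it was 0.91 to 1.28. All 3bKI arrays lay below all 3aKO arrays for it, so this measure and the group cannot be told apart in that contrast.

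Across the whole list most genes lay above the normal mean in 3bKI tumours and below it in 1KI tumours, and the difference between the tumour groups was not tested. Against wt, 34 of the 36 genes were above 0 in 3bKI, with a median log2 difference of 0.45, while 53.1% of all genes were above 0, with a median of 0.01. In single tumours 22, 25, 34 and 25 of the 36 genes lay above the wt mean. In single normal livers of that run the count ran from 4 to 28 in wt and from 6 to 32 in 3aKO. The female wt livers had 16, 28 and 27. In 1KI against wt, 11 of 36 were above 0 with a median of -0.09, against 43.3% of all genes and a median of -0.03. Against 3aKO the counts were 31 of 36 with a median of 0.44 in 3bKI, where all genes gave 54.7%, and 11 of 36 with a median of -0.10 in 1KI, where all genes gave 45.3%. Both contrasts of a tumour group use many of the same control livers as the other group's, so these counts are given side by side and are not independent of each other.

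Few single genes passed the test of limma at an adjusted p of 0.05. In 3bKI against wt 1 of the 36 genes rose, Itgax, where 1.09% of all genes were called higher. In 3bKI against 3aKO 4 rose, Trem2, Lyz2, Itgax and Cd79a, where 2.92% of all genes were called higher. With all 3 groups of the run in 1 fit, the called leukocyte genes were Itgax, Cd14, Lgals3, Trem2 and Gpnmb against wt and these 5 and Lyz2 against 3aKO. That fit takes 1 spread per gene, mostly from normal livers, and can understate the spread of the tumours. The SD in 3bKI and wt was 1.00 and 0.39 for Cd14, 0.81 and 0.40 for Lgals3 and 0.73 and 0.11 for Gpnmb. For Itgax it was 0.42 and 0.21, and for Trem2 0.22 and 0.21. No leukocyte gene fell in either contrast, where 0.978% and 6.27% of all genes were called lower. At an unadjusted p under 0.05, 9 leukocyte genes were higher and 0 lower against wt, where all genes gave 9.84% and 10.9%, and 8 were higher and 0 lower against 3aKO, where all genes gave 13.4% and 15.7%. In 1KI against wt no leukocyte gene was called by limma, where 0.242% of all genes were called, and 9 had an unadjusted p under 0.05, 3 of them higher and 6 lower, where all genes gave 9.05% and 10%. No leukocyte gene separated all 1KI tumours from all wt livers, as 1.12% of all genes did from above and 0.863% from below. In 1KI against 3aKO 0.0% of all genes and no leukocyte gene were called, and 9 leukocyte genes had an unadjusted p under 0.05, 4 higher and 5 lower, where all genes gave 6.0% and 8.01%.

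**Figure D1:**
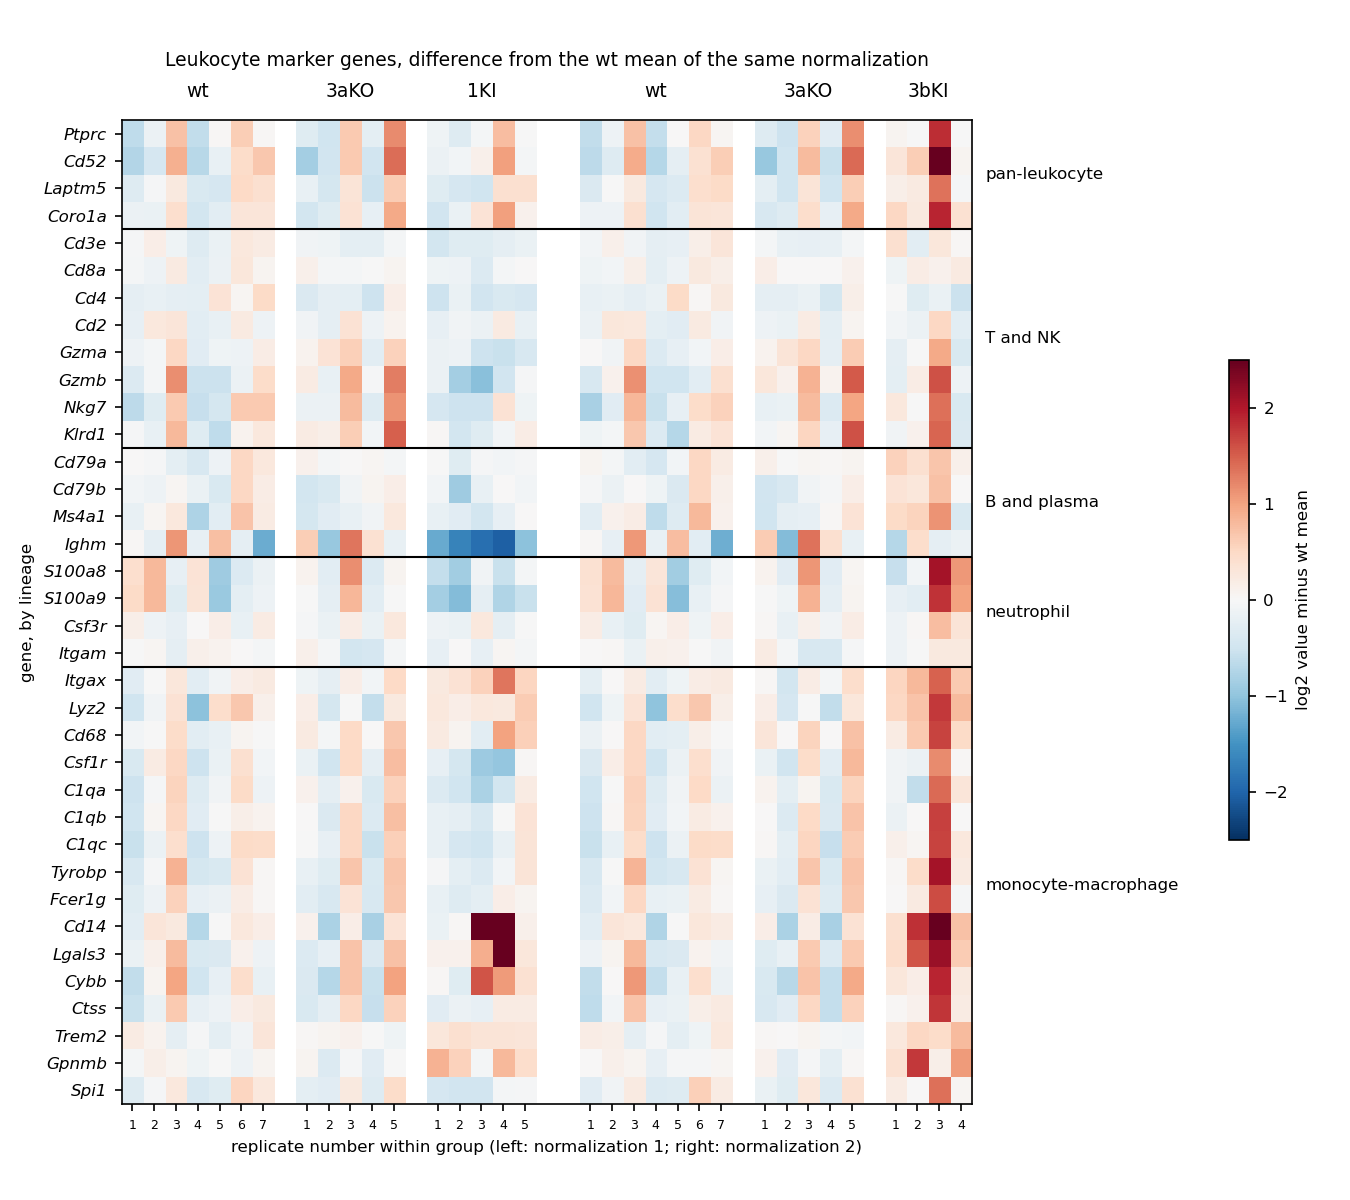
Log2 expression of the 36 measured leukocyte genes (rows, by lineage) in all 33 columns of the 2 normalizations, each minus the wt mean of its own run; red is higher, blue is lower, and differences beyond 2.5 are drawn in the end colour. The column of 3bKI tumour 3 is red in most rows, and the row of Ighm is blue in the 5 1KI tumours.

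Between the normal livers of E2f3a knockouts and wt no leukocyte gene passed the test. In that comparison 0.0% of all genes were called, and none of the 36 leukocyte genes reached an unadjusted p under 0.05 in limma, where 659 of all genes (3.62%) did as higher and 698 (3.84%) as lower. The median log2 difference of the 36 genes was 0.03, with 24 above 0 against 50.5% of all genes. The killer cell genes Klrd1 and Gzmb had the greatest differences, 0.48 ± 0.27 and 0.45 ± 0.32. The spread inside the 3aKO group was wide, since liver 5, a female, held the highest value of its group for 25 of the 36 genes, and the males 2 and 4 held the lowest for 14 and 15 genes. Both kinds of normal liver are used below as separate baselines.

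The pan-leukocyte genes lay above wt in 3bKI, with 1 tumour far above the others, and none passed the test. Ptprc encodes CD45, the tyrosine phosphatase of all nucleated blood cells, and read 8.14, 8.06, 9.92 and 8.05 in the 4 tumours against 7.46, 8.09 and 8.81 (lowest, median and highest) in wt. Tumour 3 alone lay above all wt livers for it. Coro1a, an actin regulator of leukocytes, read 7.62, 7.35, 9.01 and 7.48 in 3bKI and 6.60, 6.98 and 7.52 in wt, with tumour 3 far above the rest, tumour 1 just above the wt range and the others inside it. The differences from wt were 0.47 ± 0.37 for Ptprc, 0.88 ± 0.45 for Cd52, a short surface glycoprotein of lymphocytes and monocytes, 0.43 ± 0.26 for the lysosomal protein gene Laptm5 and 0.76 ± 0.29 for Coro1a. Their adjusted p lay between 0.166 and 0.493. Without tumour 3 all 4 stayed above 0 with a median of 0.22 in place of 0.61. In 1KI the same 4 genes gave a median of 0.11 against wt and 0.03 against 3aKO, and the groups overlapped. The 1KI values of Cd52 were 7.16, 7.24, 7.45, 8.34 and 7.28, with tumour 4 the highest. Without 1KI tumours 3 and 4 the 4 genes were all below 0 against wt, with a median of -0.13. The 4 other probe sets of Laptm5 gave 0.12 to 0.80 in 3bKI against 3aKO. Of these 1 was called by limma, at 0.80 ± 0.22 with an adjusted p over all probe sets of 0.0494. In 3bKI against wt the second probe set of Ptprc gave 0.06, and the 2 others of Coro1a gave -0.03 and 0.64.

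The means of T and NK genes lay below normal liver in 1KI, and none passed the test. All 8 measured genes were below 0 against wt, with a median of -0.27 and a range of -0.51 to -0.08, and all 8 were below 0 against 3aKO, with a median of -0.33. Cd4, the co-receptor of helper T cells, read 6.15, 6.50, 6.19, 6.28 and 6.25 in 1KI and 6.43, 6.48 and 7.15 in wt. All but tumour 2 lay below the lowest wt liver, and the difference was -0.40 ± 0.14 with an adjusted p of 0.178. A second, dimmer Cd4 probe set gave -0.10 ± 0.09. Cd3e, a signalling chain of the T cell receptor, read 6.40, 6.56, 6.55, 6.62 and 6.69 in 1KI and 6.53, 6.82 and 7.11 in wt. Tumour 1 lay below all wt livers and the others in the lower part of the wt range, and the difference was -0.29 ± 0.11 with an adjusted p of 0.193.

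The killer cell genes gave the widest gaps of this lineage, against 3aKO. Gzma, a granule protease of killer cells, read 5.92, 5.92, 5.53, 5.49 and 5.66 in 1KI, 6.16, 6.41, 6.65, 5.80 and 6.64 in 3aKO and 5.78, 5.94 and 6.57 in wt. Tumours 3, 4 and 5 lay below all 12 normal livers, and tumours 1 and 2 inside their range. The difference from 3aKO was -0.62 ± 0.17 with an adjusted p of 0.213. Gzmb, the granule protease that sets off apoptosis in target cells, read 5.46, 4.74, 4.56, 5.13 and 5.57 in 1KI and 5.81, 5.42, 6.56, 5.58 and 6.88 in 3aKO. These groups overlapped too, at a difference of -0.96 ± 0.30 and an adjusted p of 0.244. Nkg7, a granule membrane protein, and Klrd1, which encodes CD94 of NK receptors, differed by -0.50 ± 0.29 and -0.60 ± 0.26. Cd8a, the co-receptor of killer T cells, and Cd2, an adhesion receptor, were dim and stayed within -0.14 ± 0.08 and -0.08 ± 0.13.

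In 3bKI the T and NK genes were spread around the normal levels. Against wt 7 of 8 were above 0 with a median of 0.11, and against 3aKO 4 of 8 with a median of -0.02. Gzmb read 5.10, 5.52, 6.93 and 5.21 in 3bKI and 4.85, 5.09 and 6.49 in wt. Klrd1 read 4.53, 4.74, 6.09 and 4.26 against 3.91, 4.58 and 5.31. In both, tumour 3 was the highest tumour and the other 3 lay inside the wt range. Without tumour 3, 2 of the 8 genes were above 0 against wt, with a median of -0.09. Cd4 was below 0 with that tumour in, at -0.25 ± 0.15 (adjusted p = 0.349), but its second probe set gave 0.04 ± 0.11.

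Ighm, the heavy chain of IgM made by B and plasma cells, had the widest gap of any leukocyte gene in the 1KI tumours. It read 8.14, 7.72, 7.52, 7.37 and 8.38 in the 5 tumours, 10.02, 8.45, 10.74, 9.79 and 9.21 in 3aKO and 8.15, 9.20 and 10.51 in wt. All 5 tumours lay below all 5 3aKO livers, as 1.96% of all genes did. Against wt the groups just overlapped, through tumour 5 and wt liver 7, the lowest wt value. The differences were -1.58 ± 0.34 from wt (adjusted p = 0.0779) and -1.82 ± 0.38 from 3aKO (adjusted p = 0.141), and neither passed the test of limma. Without wt liver 7 the difference from wt was -1.78 ± 0.28 with an adjusted p of 0.0443, and with all 3 groups of the run in 1 fit it was called at 0.0462. The array holds 11 probe sets for Ighm, and immunoglobulin genes share sequence, so their values are uncertain: a second probe set gave -1.26 ± 0.29 against wt, and of the 10 sets beside the brightest 7 were below 0 and 3 above it, at up to 0.22.

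The surface genes of B cells lay closer to normal than Ighm in 1KI. Cd79a and Cd79b encode the signalling pair of the B cell receptor and Ms4a1 encodes CD20, a membrane protein of mature B cells. Their differences from wt in 1KI were -0.09 ± 0.14, -0.24 ± 0.17 and -0.22 ± 0.20. In 3bKI the same 3 genes were above 0 against wt. Ighm gave -0.16 ± 0.37 there (adjusted p = 0.838) on its brightest probe set, but 9 of its 10 others were above 0, 5 of them by 1.03 to 1.28, and none of the 10 was called. Against 3aKO the brightest gave -0.38 ± 0.43 and 9 of the 10 others were above 0, of which 1 was called at 1.87 ± 0.34 (limma, adjusted p over all probe sets = 0.0153). The direction of Ighm in 3bKI differed between its probe sets. Cd79a read 6.25, 6.07, 6.37 and 5.81 in 3bKI, 5.80, 5.66, 5.72, 5.70 and 5.73 in 3aKO and 5.25, 5.63 and 6.19 in wt. All 4 tumours lay above all 5 3aKO livers, though tumour 4 by a small margin, and tumours 2 and 4 lay inside the wt range. Cd79a rose by 0.40 ± 0.11 against 3aKO (adjusted p = 0.0497), and its difference of 0.45 ± 0.16 from wt did not pass (adjusted p = 0.149). Cd79b gave 0.51 ± 0.17 against 3aKO (adjusted p = 0.0787) and Ms4a1 0.55 ± 0.27 (adjusted p = 0.203). The Cd79a call against 3aKO was lost with each array centred or quantile normalized, with every probe set tested (0.0526), with 3 groups in 1 fit (0.0985), with trend and robust eBayes (0.0518), with sex in the fit, and on leaving out any 1 of the 9 arrays but 3bKI 4, at adjusted p of 0.065 to 0.101.

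The means of the neutrophil genes lay below wt in 1KI and above it in 3bKI, where tumours differed widely, and none passed the test. S100a8 and S100a9 encode the subunits of calprotectin, the main cytosolic protein of neutrophils. S100a9 read 6.26, 6.04, 6.90, 6.36 and 6.57 in 1KI, 7.11, 6.90, 7.95, 6.86 and 7.12 in 3aKO and 6.19, 6.99 and 7.93 in wt. Tumour 2 lay below all wt livers, and all but tumour 3 lay below all 3aKO livers. The differences were -0.69 ± 0.26 from wt (adjusted p = 0.197) and -0.76 ± 0.22 from 3aKO (adjusted p = 0.231). S100a8 gave -0.43 ± 0.26 and -0.57 ± 0.28. Csf3r, the receptor for the growth factor of neutrophils, and Itgam, the CD11b integrin of myeloid cells, stayed near 0 in 1KI, at -0.06 ± 0.11 and -0.08 ± 0.08 from wt. In 3bKI S100a9 read 6.75, 6.69, 8.77 and 7.96 and S100a8 6.23, 6.72, 8.88 and 7.88, against 5.90, 6.93 and 7.79 for S100a9 and 5.93, 6.72 and 7.59 for S100a8 in wt. Tumours 3 and 4 were high for both genes and tumours 1 and 2 were not. The differences from wt, 0.58 ± 0.41 and 0.63 ± 0.44, had adjusted p of 0.447 and 0.441. All 4 neutrophil genes were above 0 against wt, with a median of 0.42 that was 0.11 without tumour 3.

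**Figure D2:**
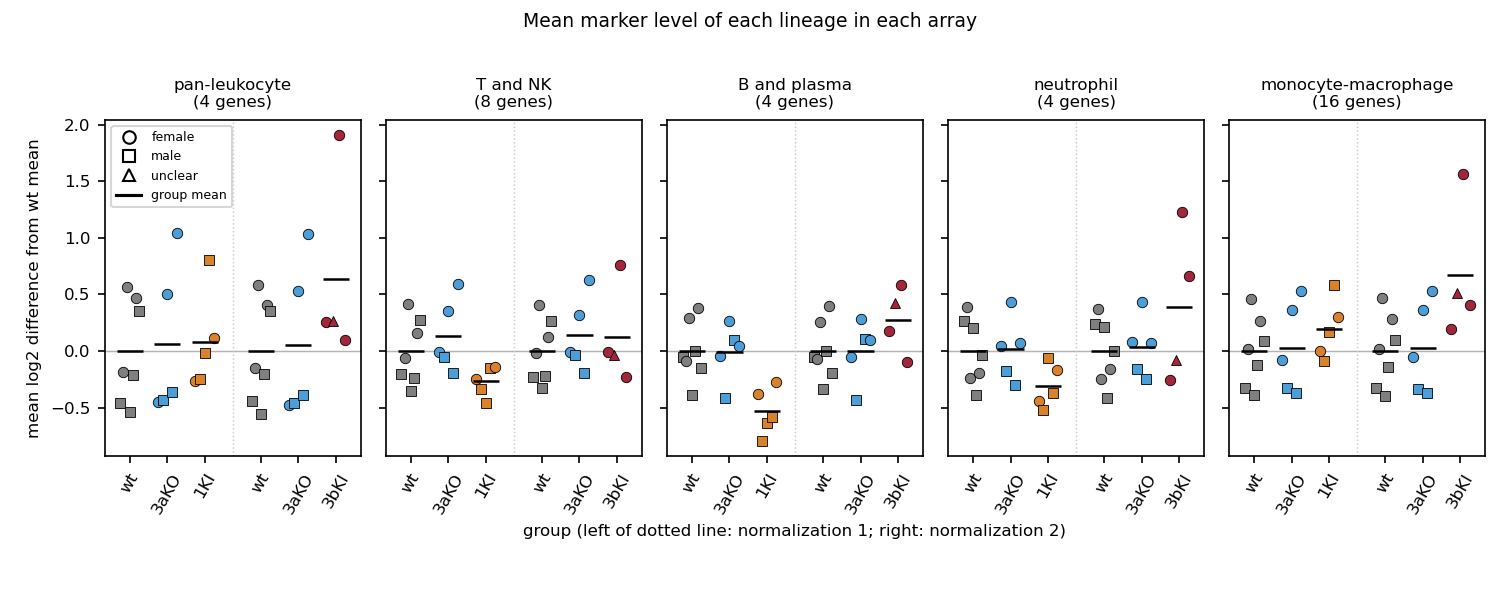
Mean over the genes of each lineage of the log2 difference from the wt mean of the same run, 1 point per array, with the marker shape giving the sex read from Xist and Y-linked genes and the line the group mean. The monocyte-macrophage level of 3bKI runs from 0.20 to 1.56 and that of 1KI from -0.09 to 0.58, while the B and plasma level of 1KI runs from -0.79 to -0.28.

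All monocyte-macrophage genes lay above the means of both normal groups in 3bKI. Against wt 16 of 16 were above 0, with a median of 0.59 and a range of 0.25 to 1.39, and against 3aKO 16 of 16 with a median of 0.54. Without tumour 3 the counts were 13 of 16 in both contrasts, with medians of 0.23 and 0.14. In females alone 16 of 16 were above 0 in both contrasts, with medians of 0.43 and 0.38, and no leukocyte gene was called. The female tumours were 1, 3 and 4, with mean levels of this lineage at 0.20, 1.56 and 0.41 from the wt mean. Female wt livers were at 0.02, 0.47 and 0.29, and female 3aKO livers at -0.05, 0.36 and 0.53. Tumour 3 alone lay above all of these female normal livers. In 1KI 8 of 16 were above 0 against wt, with a median of 0.13 and a range from -0.50 to 1.26, and 8 of 16 against 3aKO with a median of 0.01.

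Itgax, the CD11c integrin of dendritic cells and tumour macrophages, was the 1 leukocyte gene that rose in 3bKI against both normal groups. It read 6.19, 6.47, 7.12 and 6.30 in 3bKI, 5.68, 5.18, 5.84, 5.60 and 6.10 in 3aKO and 5.39, 5.65 and 5.87 in wt. All 4 tumours lay above all 12 normal livers, with tumour 3 the highest and tumour 1 closest to them; above wt stood 1.9% of all genes and above 3aKO 6.03%. Itgax rose by 0.87 ± 0.17 against wt (adjusted p = 0.0283) and by 0.84 ± 0.22 against 3aKO (adjusted p = 0.0423). The call against wt was lost with sex in the fit, where the difference was 0.76 and the adjusted p 0.193, and without any 1 of 7 arrays, wt 1, 2, 4 or 5 or 3bKI 2, 3 or 4, at adjusted p of 0.0506 to 0.0604. The call against 3aKO was lost under quantile normalization (0.0646), with sex in the fit (0.193) and on leaving out any 1 array but 3bKI 1, at 0.0508 to 0.0899. In 1KI it read 6.05, 6.16, 6.39, 7.14 and 6.35 against 5.70, 5.58, 5.97, 5.73 and 6.32 in 3aKO and 5.52, 5.79 and 6.08 in wt. All but tumour 1 lay above the wt range, tumour 4 by the widest margin, and the difference from wt was 0.61 ± 0.17 with an adjusted p of 0.140.

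Trem2, the lipid-sensing receptor of macrophages, was among the dim genes of the array. In 3bKI it read 5.81, 6.06, 5.99 and 6.34, against 5.57, 5.56, 5.61, 5.48 and 5.48 in 3aKO and 5.29, 5.51 and 5.81 in wt. All 4 tumours lay above 3aKO, and tumour 1 met the top of the wt range. Trem2 rose by 0.51 ± 0.10 against 3aKO (adjusted p = 0.0222), and the difference of 0.51 ± 0.13 from wt did not pass (adjusted p = 0.0608). In 1KI it read 5.85, 5.97, 5.89, 5.89 and 5.88, against 5.61, 5.64, 5.69, 5.56 and 5.48 in 3aKO and 5.33, 5.55 and 5.89 in wt. All 5 tumours lay above all 5 3aKO livers, as 1.45% of all genes did, and the difference of 0.30 ± 0.06 had an adjusted p of 0.144. A second Trem2 probe set gave 0.39 ± 0.09 in 3bKI against 3aKO and -0.08 ± 0.09 in 1KI against wt. The difference from wt was called with 3 groups in 1 fit (0.0181), with the mean of the probe sets (0.0461), and without wt liver 7 (0.0346) or 3bKI tumour 1 (0.0394). The call against 3aKO was lost under quantile normalization (0.0582), with sex in the fit (0.120), and without 3aKO liver 4 (0.0560) or 5 (0.0526).

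Gpnmb, a glycoprotein of lysosomes in lipid-laden macrophages, separated the 3bKI tumours from normal liver by unequal margins on its brightest probe set. In 3bKI it read 5.96, 7.34, 5.72 and 6.65, against 5.70, 5.29, 5.55, 5.35 and 5.62 in 3aKO and 5.38, 5.60 and 5.71 in wt. Tumour 2 was the highest and tumour 3, highest for most other genes, was the lowest and close to normal liver. The differences were 0.84 ± 0.24 from wt (adjusted p = 0.0844) and 0.92 ± 0.28 from 3aKO (adjusted p = 0.0678). With 3 groups in 1 fit these were called at 0.0341 and 0.0213, and without tumour 3 the one from 3aKO was called at 0.0476. In 1KI it read 6.58, 6.28, 5.66, 6.51 and 6.15, where tumour 3 alone lay within the wt range of 5.58, 5.69 and 5.85. The difference from wt was 0.53 ± 0.13 with an adjusted p of 0.114. Without 1KI tumour 3 it was 0.68 ± 0.09 with an adjusted p of 0.0350, and without tumours 3 and 4 it was 0.63 ± 0.10 with 0.0325. A second probe set of Gpnmb did not show these differences. It gave 0.006 in 3bKI against wt, 0.035 in 3bKI against 3aKO and -0.085 in 1KI against wt.

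**Figure D3:**
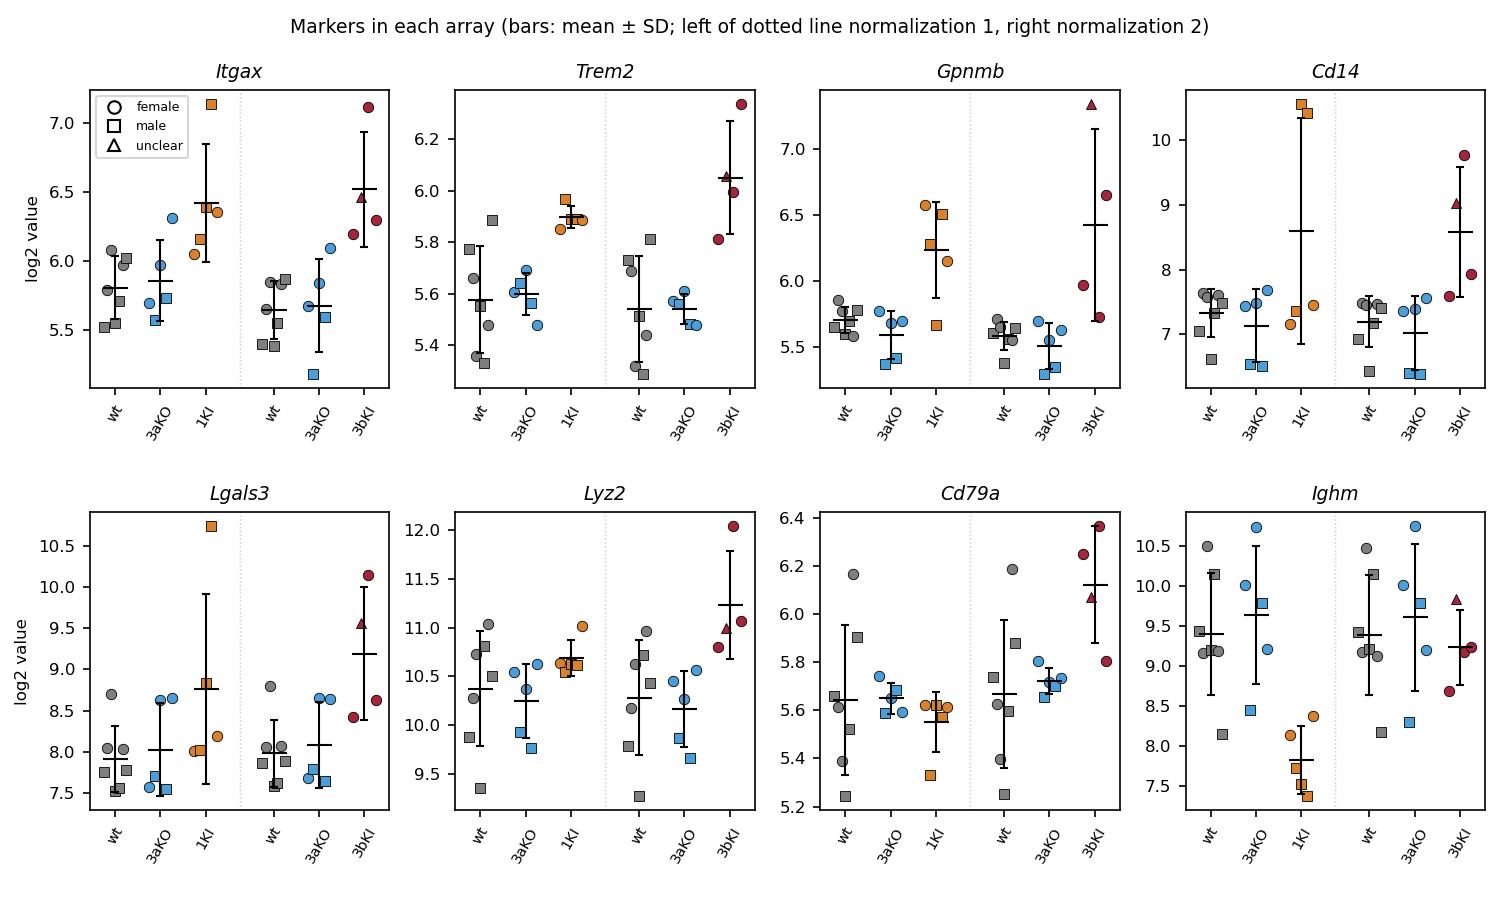
Log2 expression per array of Itgax, Trem2, Gpnmb, Cd14, Lgals3, Lyz2, Cd79a and Ighm in both normalizations, with the mean and SD of each group. The 4 3bKI tumours lie above all 12 normal livers for Itgax, Cd14 and Gpnmb, and the 5 1KI tumours lie below the 3aKO livers for Ighm.

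Cd14, the co-receptor that passes bacterial lipopolysaccharide to TLR4, had the greatest difference of the macrophage genes in both tumour groups, carried by 2 tumours in each. In 3bKI it read 7.60, 9.03, 9.77 and 7.93, against 7.37, 6.41, 7.39, 6.39 and 7.56 in 3aKO and 6.45, 7.40 and 7.49 in wt. Tumours 2 and 3 were far above the normal livers, and tumours 1 and 4 just above them. The difference from wt was 1.39 ± 0.36, or 2.61-fold, with an adjusted p of 0.0671, and from 3aKO 1.56 ± 0.44 with 0.0542. Without 3bKI tumour 1 Cd14 was called against both, at 0.0253 and 0.0347, as it was with 3 groups in 1 fit, at 0.0361 and 0.0205. Against 3aKO it was also called with each array centred (0.0473) and without the dimmest genes (0.0458). In 1KI it read 7.17, 7.36, 10.55, 10.42 and 7.46 against 6.61, 7.49 and 7.64 in wt, with tumours 3 and 4 far above all others and the other 3 inside the wt range. The difference of 1.26 ± 0.59 had an adjusted p of 0.263.

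Lgals3, the galectin-3 lectin secreted by macrophages and also made by tumour epithelium, had a similar spread. In 3bKI it read 8.43, 9.56, 10.15 and 8.63 against 7.59, 7.89 and 8.80 in wt, with tumours 2 and 3 high and tumours 1 and 4 near the top of the wt range. Its difference was 1.21 ± 0.31 (adjusted p = 0.0675), or 2.31-fold, and it was called without tumour 1 (0.0314) and with 3 groups in 1 fit (0.0377). In 1KI it read 8.01, 8.03, 8.83, 10.74 and 8.20 against 7.53, 7.78 and 8.70, with tumour 4 far above the rest and a difference of 0.85 ± 0.41 (adjusted p = 0.280).

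Lyz2, the lysozyme of macrophages and neutrophils, read 10.81, 11.00, 12.04 and 11.07 in 3bKI, 10.46, 9.86, 10.27, 9.66 and 10.57 in 3aKO and 9.27, 10.43 and 10.97 in wt. All 4 tumours lay above 3aKO, but tumour 1 lay inside the wt range. Lyz2 rose by 1.06 ± 0.27 against 3aKO (adjusted p = 0.0397), and the difference of 0.95 ± 0.32 from wt did not pass (adjusted p = 0.123). The call was lost with sex in the fit (0.150) and on leaving out any 1 array but 3aKO 1 or 3bKI 1, at 0.0561 to 0.0852. Cd68, a lysosomal protein of macrophages, differed by 0.75 ± 0.24 from wt (adjusted p = 0.109) and by 0.43 ± 0.28 from 3aKO. In 1KI Lyz2 and Cd68 gave 0.32 ± 0.25 and 0.32 ± 0.19 from wt.

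The genes of the broad macrophage programme, Csf1r, C1qa, C1qb, C1qc, Tyrobp, Fcer1g, Ctss, Cybb and Spi1, were higher in 3bKI tumour 3 and inside the wt range in the other 3, except C1qa, which was below it in tumour 2. Csf1r, the receptor for the macrophage growth factor CSF1, read 10.96, 10.89, 12.21 and 11.07 against 10.54, 10.94 and 11.55 in wt. C1qa, a chain of complement C1q, read 10.61, 10.08, 12.10 and 11.00 against 10.19, 10.60 and 11.27. Only tumour 3 exceeded the wt range for these genes, and the differences from wt were 0.25 ± 0.26 and 0.25 ± 0.32. The C1q chains C1qb and C1qc gave 0.40 ± 0.32 and 0.54 ± 0.32, the adaptor Tyrobp 0.70 ± 0.36 and the Fc receptor chain Fcer1g 0.46 ± 0.28. Ctss, a protease of antigen processing, gave 0.53 ± 0.32, Cybb, the catalytic subunit of the NADPH oxidase, 0.65 ± 0.37, and Spi1, which encodes the transcription factor PU.1 of myeloid cells, 0.42 ± 0.26. None of the 9 passed the test, with adjusted p between 0.299 and 0.695.

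In 1KI the same programme was level or below normal, apart from Cybb. Csf1r read 10.90, 10.64, 10.18, 10.13 and 11.12 in 1KI against 10.57, 11.03 and 11.62 in wt. Tumours 3 and 4, the 2 with high Cd14, were the lowest for Csf1r. The differences from wt were -0.50 ± 0.22 for Csf1r (adjusted p = 0.240), -0.38 ± 0.20 for C1qa and -0.29 ± 0.17 for Spi1. Cybb read 8.20, 7.86, 9.74, 9.23 and 8.55, with tumours 3 and 4 the highest, and gave 0.55 ± 0.34 (adjusted p = 0.376). The other 5 genes, C1qb, C1qc, Tyrobp, Fcer1g and Ctss, lay between -0.19 and -0.05.

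**Figure D4:**
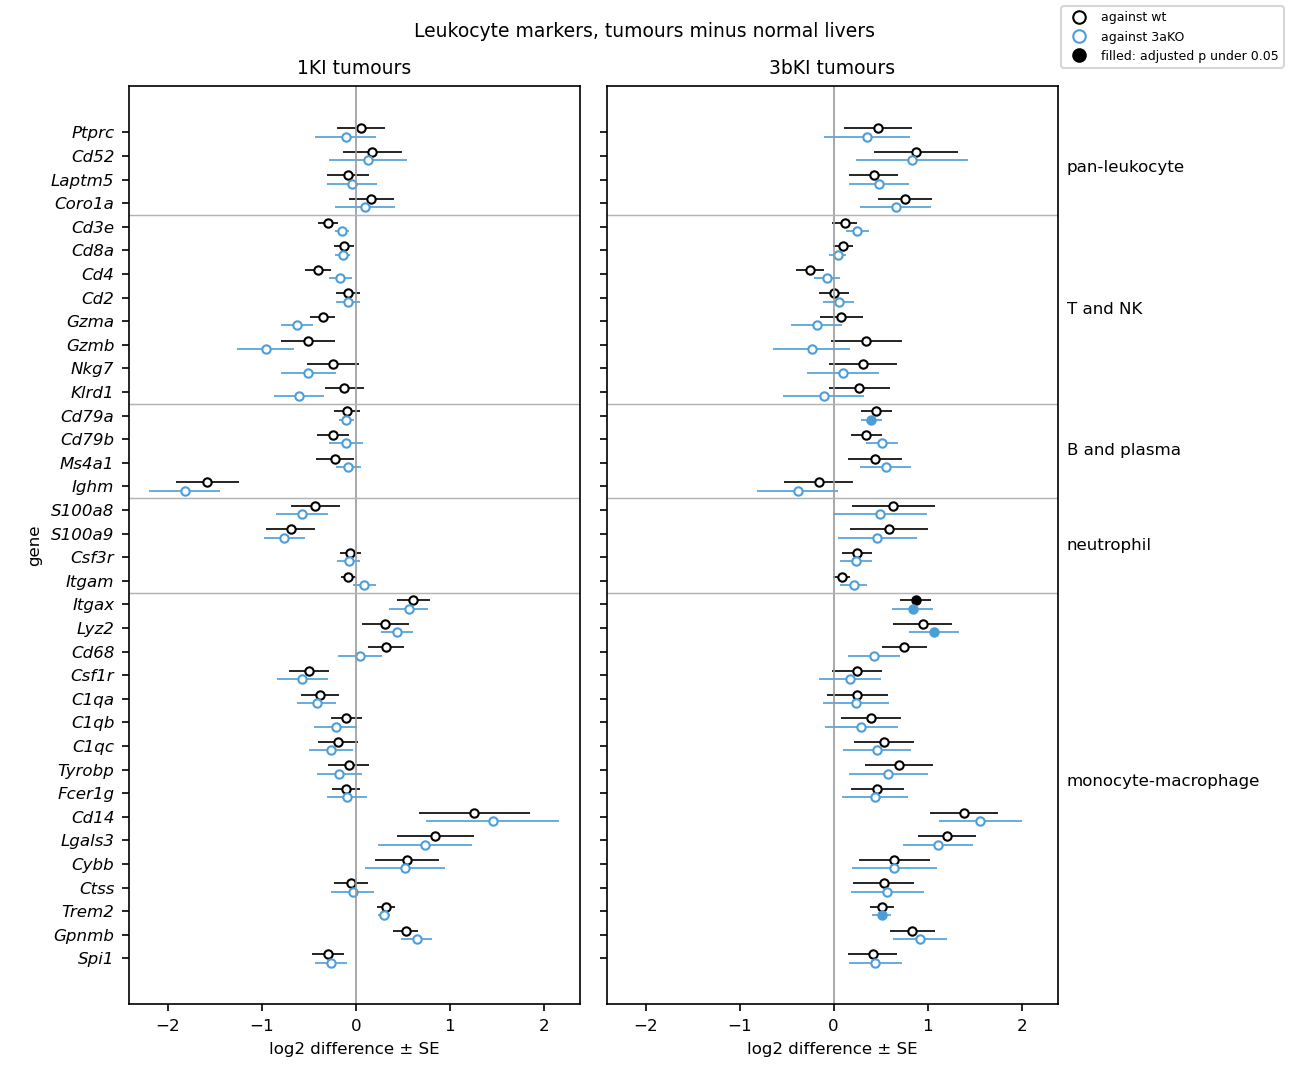
Log2 difference with its standard error of each leukocyte gene in 1KI and in 3bKI against wt (black) and against 3aKO (blue), with filled points for adjusted p under 0.05 in limma. Points of 3bKI lie right of 0 for 34 of 36 genes against wt, and the filled points are Itgax against both and Trem2, Lyz2 and Cd79a against 3aKO.

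The promoters of these genes were read where a RefSeq entry of GRCm38.p6 matched by symbol, as it did for 25 of the 37 listed genes in 28 windows of the 250 bases before a start. Cd52, Cd4, Cd2, Klrd1, Cd79b, Ms4a1, Ighm, Csf1r, C1qa, Tyrobp, Cd14 and Spi1 had no entry. The letters GAGGAA, or TTCCTC on the other strand, are the core that PU.1 binds. They stood in 14 of the 28 windows (50.0%) and in 23.3% of the 32851 mouse windows of that length. The longer GAGGAAGT, or ACTTCCTC, which holds that core, stood in 7.14% and in 2.44%. The letters TGANTCA, the same on both strands, are a loose form of the AP-1 site, with any base at N. They stood in 5 windows (17.9%), those of Itgax, Cd68, Gzmb, Trem2 and Cybb, and in 6.75% of all windows. The window of Itgax has TGAGTCA, and those of Trem2 and Cybb have TGAATCA. The E-box CACGTG, also the same on both strands, stood in 0.0% and in 6.02%. The windows of Itgax, the gene called against both normal groups, of Trem2, which holds both kinds of letters, and of Cybb and the neighbouring C1qb and C1qc, with 1 kind each, are printed 5′ to 3′ along the gene's strand. Capitals mark the PU.1 core on either strand and TGANTCA, and a match is a description of letters, not of binding.
Itgax, chr7:128129300-128129549, plus strand: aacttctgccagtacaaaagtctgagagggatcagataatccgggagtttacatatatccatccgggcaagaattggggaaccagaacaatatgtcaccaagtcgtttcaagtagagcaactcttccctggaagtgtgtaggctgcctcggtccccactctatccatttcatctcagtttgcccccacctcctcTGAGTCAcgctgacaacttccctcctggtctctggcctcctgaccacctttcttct
Trem2, chr17:48346151-48346400, plus strand: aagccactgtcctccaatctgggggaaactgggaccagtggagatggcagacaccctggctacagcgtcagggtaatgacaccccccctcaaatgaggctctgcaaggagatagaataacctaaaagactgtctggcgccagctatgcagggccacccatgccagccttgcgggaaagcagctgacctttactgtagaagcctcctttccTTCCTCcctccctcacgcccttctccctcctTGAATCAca
C1qb, chr4:136886201-136886450, minus strand: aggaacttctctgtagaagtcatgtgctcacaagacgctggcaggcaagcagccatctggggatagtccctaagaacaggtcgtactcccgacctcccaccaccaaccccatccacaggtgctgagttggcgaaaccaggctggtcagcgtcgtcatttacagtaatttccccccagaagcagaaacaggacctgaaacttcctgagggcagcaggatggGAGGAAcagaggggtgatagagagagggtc
C1qc, chr4:136892915-136893164, minus strand: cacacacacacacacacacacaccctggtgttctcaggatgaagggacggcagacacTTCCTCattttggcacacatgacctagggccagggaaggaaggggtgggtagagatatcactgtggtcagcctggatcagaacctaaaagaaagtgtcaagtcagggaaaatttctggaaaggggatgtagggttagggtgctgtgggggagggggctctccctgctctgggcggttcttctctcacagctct
Cybb, chrX:9469325-9469574, minus strand: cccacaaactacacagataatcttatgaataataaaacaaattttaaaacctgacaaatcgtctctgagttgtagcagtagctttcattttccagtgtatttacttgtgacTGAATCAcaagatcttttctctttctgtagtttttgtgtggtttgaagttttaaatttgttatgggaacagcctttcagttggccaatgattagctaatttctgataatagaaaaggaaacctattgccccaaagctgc
The window of Itgax holds TGANTCA and no GAGGAA on either strand, that of Trem2 holds 1 of each, that of Cybb holds TGANTCA, and those of C1qb and C1qc hold the PU.1 core. In 3bKI Itgax was called against both normal groups and Trem2 against 3aKO alone, while Cybb, C1qb and C1qc were not called. Lyz2 and Cd79a, also called against 3aKO, hold no TGANTCA, and Cd68 and Gzmb hold it and were not called. A link between letters and calls was not tested.

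Wider marker lists were read beside the 36 genes, starting with those of macrophages. Of 6 genes of lipid-associated macrophages, 6 were above 0 in each tumour group against wt, with medians of 1.05 in 1KI and 1.47 in 3bKI. Mmp12, the macrophage elastase, read 4.98, 5.68, 5.52, 6.79 and 4.92 in 1KI against 3.11, 3.56 and 3.97 in wt, and 4.84, 6.62, 4.98 and 4.97 in 3bKI against 2.98, 3.42 and 3.82. All tumours lay above all wt livers, as 1.12% of all genes did in 1KI and 1.9% in 3bKI. The mean of Mmp12 in each group lay below 5.695, the level that bounds the 40% dimmest genes. Mmp12 rose by 2.01 ± 0.28 in 1KI (adjusted p = 0.0182) and by 1.92 ± 0.30 in 3bKI (adjusted p = 0.0164) against wt. Against 3aKO it rose in 3bKI, by 1.82 ± 0.34 (adjusted p = 0.0180), and the 1KI difference of 1.89 ± 0.32 did not pass (adjusted p = 0.0788). Lgals1, the galectin-1 lectin, rose in 3bKI by 1.53 ± 0.35 against wt (adjusted p = 0.0478) and by 1.34 ± 0.33 against 3aKO (adjusted p = 0.0372). Lpl, lipoprotein lipase, rose by 2.39 ± 0.59 against 3aKO (adjusted p = 0.0376), and its difference of 2.14 ± 0.70 from wt did not pass (adjusted p = 0.118). In 1KI Lgals1 and Lpl gave 1.14 ± 0.29 and 1.59 ± 0.65 from wt, which did not pass (adjusted p = 0.114 and 0.221).

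The group means of Kupffer cell genes lay below wt in 1KI and mostly above it in 3bKI, apart from Cd163, but the 3bKI tumours differed widely. The mean level of the 8 genes was 7.87, 8.66 and 9.80 (lowest, median and highest) in 3bKI and 8.28, 8.76 and 9.18 in wt. The lowest and median of 3bKI were thus below those of wt, and only the highest was above. In 1KI 0 of 8 were above 0 against wt, with a median of -0.77, and none was called by limma; in 3bKI 7 of 8 were above 0 with a median of 0.25. Cd163, the haptoglobin-haemoglobin scavenger receptor, read 5.29, 3.24, 4.64 and 5.00 in 3bKI against 5.48, 6.64 and 7.15 in wt. The highest tumour, at 5.29, lay below the lowest wt liver, at 5.48, and the share of all genes with this separation is not given here. Cd163 fell against wt in limma, with a difference of -1.90 ± 0.39 (adjusted p = 0.0341), where 0.978% of all genes were called lower. Against 3aKO Cd163 fell likewise, at -1.69 ± 0.43 (adjusted p = 0.0403), where 6.27% of all genes were called lower. In 1KI it read 4.24, 6.07, 3.85, 3.17 and 6.68 against 5.69, 6.85 and 7.36, with tumours 2 and 5 inside the wt range and a difference of -1.84 ± 0.55 (adjusted p = 0.147). Marco, a scavenger receptor of Kupffer cells, gave -2.13 ± 0.68 (adjusted p = 0.162).

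Other lists of blood cells gave these counts against wt. In 1KI 4 of 23 further T and NK genes, 6 of 15 B and plasma genes, 0 of 11 neutrophil genes and 6 of 16 monocyte-macrophage genes were above 0. In 3bKI the counts were 19 of 23, 11 of 15, 9 of 11 and 14 of 16, and none was called in either contrast. Of 8 dendritic cell genes 4 were above 0 in 1KI and 7 in 3bKI, of 6 mast cell and basophil genes 1 and 4, of 3 erythroid genes 0 and 2, and of 3 genes of spleen and lymphoid follicle stroma 0 and 1. Against 3aKO, where 2.92% of all genes were called higher, 3bKI tumours had called rises in Ms4a7 (0.91 ± 0.17, adjusted p = 0.0197) and Cx3cr1 (0.43 ± 0.09), genes of macrophages and patrolling monocytes, and in Cd209a of dendritic cells (0.38 ± 0.08). Their differences from wt were 0.64 ± 0.16, 0.39 ± 0.10 and 0.36 ± 0.14 and did not pass (adjusted p = 0.0613, 0.0594 and 0.173). Ccr2 of monocytes, Elane of neutrophil precursors and Eomes of killer cells were also called higher against 3aKO, by 0.41 ± 0.10, 0.41 ± 0.09 and 0.31 ± 0.08, but against wt gave 0.14 ± 0.09, 0.07 ± 0.12 and 0.12 ± 0.11 (adjusted p = 0.396, 0.788 and 0.574). The 3aKO livers themselves lay below wt for these 3 genes, with differences of -0.28, -0.34 and -0.27 that did not pass. The 3bKI and 3aKO means of Ms4a7, Cx3cr1, Cd209a, Elane and Eomes, but not of Ccr2, lay below the level of 5.695 that bounds the dimmest genes. Results for these genes with sex in the fit are not given here. Pdgfrb of stellate cells and Plvap of endothelium rose in 1KI against wt, by 0.76 ± 0.12 and 1.00 ± 0.16. Against 3aKO their differences were 0.46 ± 0.15 and 0.43 ± 0.19 and did not pass (adjusted p = 0.245 and 0.352), and 3aKO livers lay above wt by 0.30 and 0.57, which did not pass either. In 3bKI against wt Pdgfrb and Plvap gave 0.70 ± 0.22 and 0.36 ± 0.20 and did not pass (adjusted p = 0.104 and 0.337). The collagen genes Col1a1 and Col3a1 and the claudin gene Cldn7 rose in 3bKI, by 1.21 ± 0.22, 1.71 ± 0.33 and 1.16 ± 0.19 against wt and by 1.15 ± 0.16, 1.55 ± 0.37 and 1.31 ± 0.25 against 3aKO. In 1KI they gave 1.43 ± 0.42, 1.43 ± 0.28 and 1.10 ± 0.24 from wt, which did not pass (adjusted p = 0.147, 0.0636 and 0.0780). The hepatocyte genes Apob and Cps1 fell in 3bKI against 3aKO, with differences of -1.24 ± 0.12 and -0.43 ± 0.09, where 6.27% of all genes were called lower, and gave -0.83 ± 0.31 and -0.26 ± 0.11 from wt, which did not pass (adjusted p = 0.163 and 0.211). The part of these other cell types in the leukocyte values was not tested.

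Most leukocyte genes had higher values in female than in male normal livers, and 5 passed the test. The 12 normal livers held 6 females and 6 males by Xist and the Y-linked genes, and a limma fit with genotype and sex was added after these values had been seen. In normalization 1, 32 of the 36 leukocyte genes were higher in females, with a median difference of 0.47, against 51.9% of all genes. Cd14, Cd2, C1qa, Csf1r and Cybb passed the test as higher in females, 5 of 36, where 1.43% of all genes did, and none passed as lower, where 1.1% of all genes did. For 2 of the 36 genes, C1qa and Cd2, every female lay above every male, as for 1.19% of all genes. By lineage the genes above 0 were 4 of 4 pan-leukocyte, 7 of 8 T and NK, 4 of 4 B and plasma, 2 of 4 neutrophil and 15 of 16 monocyte-macrophage genes.

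Csf1r read 10.92, 11.54 and 11.85 in the 6 females and 10.57, 10.79 and 11.03 in the 6 males (lowest, median and highest). All females but the lowest lay above all males, and the gene was higher in females by 0.68 ± 0.14 (adjusted p = 0.0252). C1qa read 10.75, 11.07 and 11.34 in the 6 females and 10.26, 10.50 and 10.69 in the 6 males (lowest, median and highest). No male reached the lowest female, and the difference was 0.59 ± 0.12 (adjusted p = 0.0244). Cd14 read 7.44, 7.59 and 7.68 in the 6 females and 6.51, 6.84 and 7.49 in the 6 males (lowest, median and highest). The females were tight and the males spread up to their level, at a difference of 0.70 ± 0.14 (adjusted p = 0.0209). Cybb differed by 0.96 ± 0.22 and Cd2 by 0.39 ± 0.08, with adjusted p of 0.0333 and 0.0214. Trem2, the 1 macrophage gene not above 0, gave -0.08 ± 0.10. Within wt alone 32 of 36 genes were higher in females and none was called by limma, and within 3aKO 35 of 36 were and Cd14 was called. Leaving out 1 liver at a time gave 0 to 10 called leukocyte genes: 0 without 3aKO liver 2, 1 without wt liver 3 or wt liver 6, and 10 without wt liver 7.

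**Figure D5:**
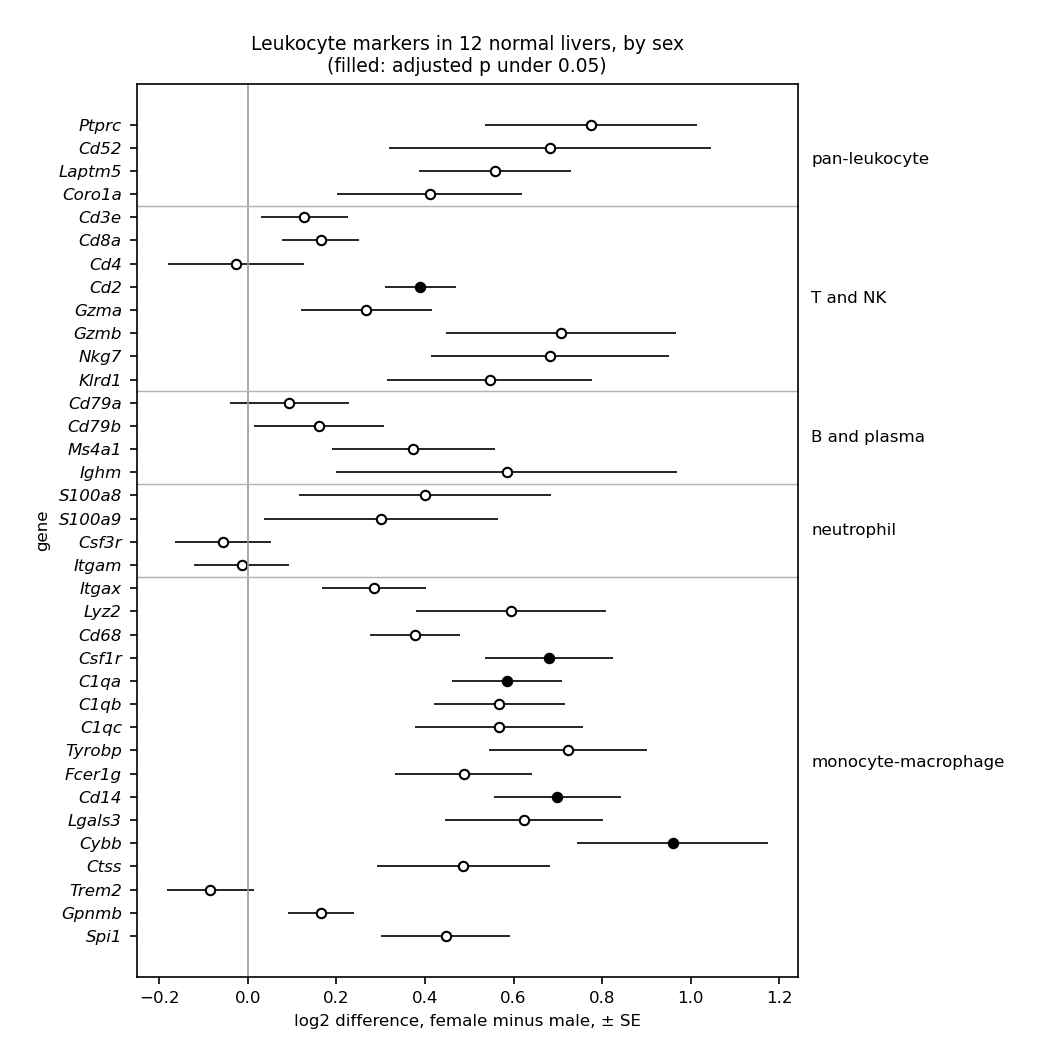
Female minus male log2 difference with its standard error for each leukocyte gene over the 12 normal livers in normalization 1, from a limma fit with genotype and sex, with filled points for adjusted p under 0.05. Points lie right of 0 for 32 of the 36 genes, and the filled ones are Cd14, Cd2, C1qa, Csf1r and Cybb.

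Sex moves with the 3bKI contrasts, whose 3 clearly sexed tumours were female. With sex in the fit, or in females alone, tumour 2 of 3bKI was left out for want of a clear sex, and tumour 3 was 1 of the 3 tumours kept. There 31 of the 36 leukocyte genes were above 0 against wt, with a median of 0.30 in place of 0.45, and 29 of 36 against 3aKO, with a median of 0.32. No leukocyte gene was called by limma in either. In 1KI the females alone gave 6 of 36 above 0 against wt, with a median of -0.28, and 5 of 16 macrophage genes with a median of -0.21.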

How the data were processed

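The deposited values are log2 expression per probe set, normalized by the authors in 2 runs, per the labels; the method is not given in the sources used here. The 12 normal livers stand in both runs, and each gave nearly the same profile in both (r over probe sets from 0.9985 to 0.9987). Of 45101 probe sets, 64 are controls, 34945 carry 1 gene symbol in GEO's platform annotation, 932 several and 9160 none. Each of 18193 genes was represented by the brightest of its single-symbol probe sets, by the mean of all columns. The 5 comparisons were 2-group fits with limma 3.58.1 in R 4.3.3 (lmFit and eBayes), with Benjamini-Hochberg adjustment over all genes and a threshold of 0.05. The scripts were tested on simulated data. A liver was called female where Xist was above 10 and the mean of Uty, Eif2s3y and Kdm5d was below 5, and male in the opposite case. The number of arrays limits the precision. Named genes are all leukocyte genes and, from each wider marker list, the genes called in a comparison or else the 2 with the lowest p; lists without a call are mostly given as counts. The members and lists were chosen with earlier results of these data known. Alternatives covered quantile normalization, centring, dim genes, other probe set rules, pooled fits, eBayes with trend, the replicate number as a block, sex and each array left out.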

Additional observations from a re-analysis of the deposited data

Results flagged for a closer look

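Within groups of 4 to 7 livers, 16 of 144 sets of values of a leukocyte gene had 1 array far from the others, by the gap to its nearest neighbour over the range. For a single set chance gives about 1 in 20. The sets share arrays and are not independent, so that rate is no measure for the 16, and the flag was not counted over all genes. Tumour 3 of 3bKI was the high array for 9 genes of its group: Ptprc at 9.92, Coro1a at 9.01, Csf1r at 12.2, C1qb at 11.7, C1qc at 11.7, Fcer1g at 9.23, Cybb at 9.97, Ctss at 12.0 and Spi1 at 8.19. Liver 3 of 3aKO was high for both calprotectin genes, S100a8 at 8.02 and S100a9 at 7.95. In 1KI tumour 4 was high for Cd52 at 8.34 and Cd2 at 5.31, tumour 5 was high for Lyz2 at 11.0, and tumour 2 was low for Cd79a at 5.33 and Cd79b at 4.84.

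For Cd79a and Spi1 all 1KI tumours lay on 1 side of the wt mean of their run and all 3bKI tumours on the other: Cd79a differed by -0.0895 in 1KI and 0.45 in 3bKI, and Spi1 by -0.29 and 0.42. These differences between the tumour groups were not tested, since the groups were normalized in separate runs. Some margins were small. The highest 1KI value of Cd79a was 5.62 against a wt mean of 5.64, and the lowest 3bKI value of Spi1 was 6.83 against 6.81. The share of all genes that lay on opposite sides in this way was not counted.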

How the results depend on the processing

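No leukocyte gene called on its brightest probe set changed direction under an alternative. Ighm, not called, was at -0.38 in 3bKI against 3aKO, but with every probe set tested another of its sets was called higher at 1.87, and the mean of its sets gave 0.60 there and 0.58 against wt. Against wt, 3bKI had 377 called genes and 1 called leukocyte gene. These became 745 with each array centred on its median (197 higher and 548 lower, against 199 and 178 as deposited), 996 and 5 with all 3 groups of the run in 1 fit, 67 and 0 with sex in the fit, 16 and 0 in females only, and 2 leukocyte genes with the mean of a gene's probe sets. Leaving out 1 array gave 49 to 848 genes and 0 to 4 leukocyte genes. Against 3aKO, 3bKI had 1671 and 4, which became 844 and 1 under quantile normalization, 145 and 0 with sex, 31 and 0 in females only, and 490 to 1440 and 0 to 4 without 1 array.

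Against wt, 1KI had 44 and 0, which became 313 and 2 with 3 groups, 93 genes with sex, 13 in females only, 1 leukocyte gene without tumours 3 and 4, and 2 to 69 and 0 to 1 without 1 array. Against 3aKO, 1KI had 0 called genes, which became 1 under quantile normalization, without the 40% dimmest genes or with trend and robust eBayes, 5 with every probe set, 57 with 3 groups, 3 with sex, 23 without tumours 3 and 4, 6 in females only and 0 to 6 without 1 array. In 3aKO against wt the 0 called genes became 2 with every probe set, 1 with 3 groups and 0 to 1 without 1 array. The female-to-male fit of normal livers had 461 and 5, which became 207 and 0 within wt, 34 and 1 within 3aKO, and 213 to 633 and 0 to 10 without 1 liver. The cause of these moves was not tested, except that the smaller sets hold fewer samples.

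The livers share replicate numbers but no pairing that the labels state, and in no comparison did every same-numbered pair correlate above 0.1 in deviations from the group means, or every sample correlate best with its own number. In 3bKI against 3aKO all 4 pairs were above 0, from 0.063 to 0.278, and 3 were above 0.1. With the replicate number as a block, the called genes were 1 in 3aKO and 1 in 1KI against wt, 694 in 3bKI against wt with 6 leukocyte genes, and 50 in 3bKI against 3aKO with 0 leukocyte genes. The females-only fits, the leave-outs by lineage and the female-to-male fit were chosen after seeing the data.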
